A study of Homo sapiens with 9 samples.

Results

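The replication-dependent histone genes are the 70 autosomal protein-coding genes of the GRCh38.p14 annotation whose symbols begin with H2AC, H2BC, H3C or H4C, or run from H1-1 to H1-6, out of 19974 protein-coding genes in all. They divide into 6 linker histone (H1), 17 H2A, 19 H2B, 13 H3 and 15 H4 genes. Chromosome 6 holds 55 of them and chromosome 1 holds 13, while H4C16 lies on chromosome 12 and H2BC12L on chromosome 21. Their accessibility was read from ATAC-seq, which marks open chromatin through insertion of the Tn5 transposase, in SK-N-MC, an established Ewing sarcoma cell line. The 9 libraries form 3 groups of 3 replicates: cells with a scrambled control hairpin (shScramble), and cells with either of 2 hairpins against CHD4 (shCHD4#1, called hairpin 1, and shCHD4#2, called hairpin 2). Every group, the control included, carried a doxycycline-inducible hairpin and was kept for 48 h with 100 ng/ml doxycycline, and 100000 SK-N-MC cells were combined with 100 Drosophila S2 cells per library. CHD4 is the ATPase of the NuRD complex, which remodels nucleosomes and removes histone acetylation. The level of CHD4 itself was not analysed here, since regions of open chromatin do not measure a knockdown.

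Replication-dependent histone genes supply the histones that package new DNA in S phase. The core histones H2A, H2B, H3 and H4 form the nucleosome, and linker histone H1 binds the DNA that enters and leaves it. The genes are short, lack introns in their classic form and sit in dense clusters, where many H2A and H2B genes are transcribed away from each other from a shared promoter. NPAT and CASP8AP2 (FLASH) gather at these clusters in the histone locus body, and the transcripts end in a stem-loop bound by SLBP rather than in a poly(A) tail.

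The members were read from 3 deposited lists of accessible regions, 1 per group, with 85775 regions for shScramble, 122869 for hairpin 1 and 83241 for hairpin 2. Hairpin 1 thus had 1.43 times and hairpin 2 0.97 times as many regions as the control. Each list is filed with the first replicate of its group, and whether it combines all 3 replicates is not stated. The depth behind the lists is unknown and no value per replicate was analysed here, so no comparison between groups has a test or a replicate error, and all differences below describe the lists. In these bulk preparations, fewer cells with an open site and a less open site in each cell cannot be told apart. Each list also holds a block of regions with 1 shared p-value (8.67%, 6.60% and 6.17% of the regions), called tied regions here. Tied regions stand late in the authors' order, yet their median second value (726, 653 and 757) is above that of all regions (243, 218 and 244). In the control list, 86.9% of tied regions share their second value with a region within 1000 bp, against 39.5% of other regions. That value can thus not be taken as the tied region's own, and a tied region is read neither as weak nor as strong signal. A region at the gene is too common to check the cell label, since 71.4% of all genes had one in every list: so did 6 of 6 known targets of the Ewing sarcoma fusion and 5 of 8 markers of other cell types (PTPRC, CD3E, KRT8, CDH5 and PECAM1), while ALB and HBB had none within 5 kb.

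The histone loci held slightly fewer regions in both hairpin lists than in the control list. A locus is the gene with 5 kb on each side, and overlapping loci were merged into 18 loci that span 440 kb. The control list placed 43 regions there, the hairpin 1 list 39 and the hairpin 2 list 38. The hairpin lists therefore had 0.907 and 0.884 times the control number, while loci of all protein-coding genes had 1.38 and 0.986 times. The exact 95% counting interval was 0.573 to 1.43 for the hairpin 1 ratio and 0.556 to 1.40 for hairpin 2, so with so few regions neither ratio is set apart from that of all gene loci. With a flank of 50 kb the hairpin 1 ratio was 1.10. The chromosome 6 loci held 32, 30 and 30 regions, those on chromosome 1 held 10, 8 and 7, and the remaining pair held 1 in each list. With only the authors' regions of p at most 0.05, the hairpin 2 ratio was 1.29 and the hairpin 1 ratio 1.00, and without tied regions the hairpin 2 ratio was 1.03, so the direction for each hairpin depends on the regions or the flank counted. The covered length differed less, at 122, 131 and 120 kb, or 27.6%, 29.7% and 27.2% of the loci. That share of all gene loci was 7.17%, 9.72% and 5.66%. In the control list it was 12.6% for loci of the 462 other genes of at most 1 kb, and 38.2% for loci of ribosomal protein genes. The histone loci lay between these sets in every list, so a share above that of all gene loci is not particular to them.

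**Figure D1:**
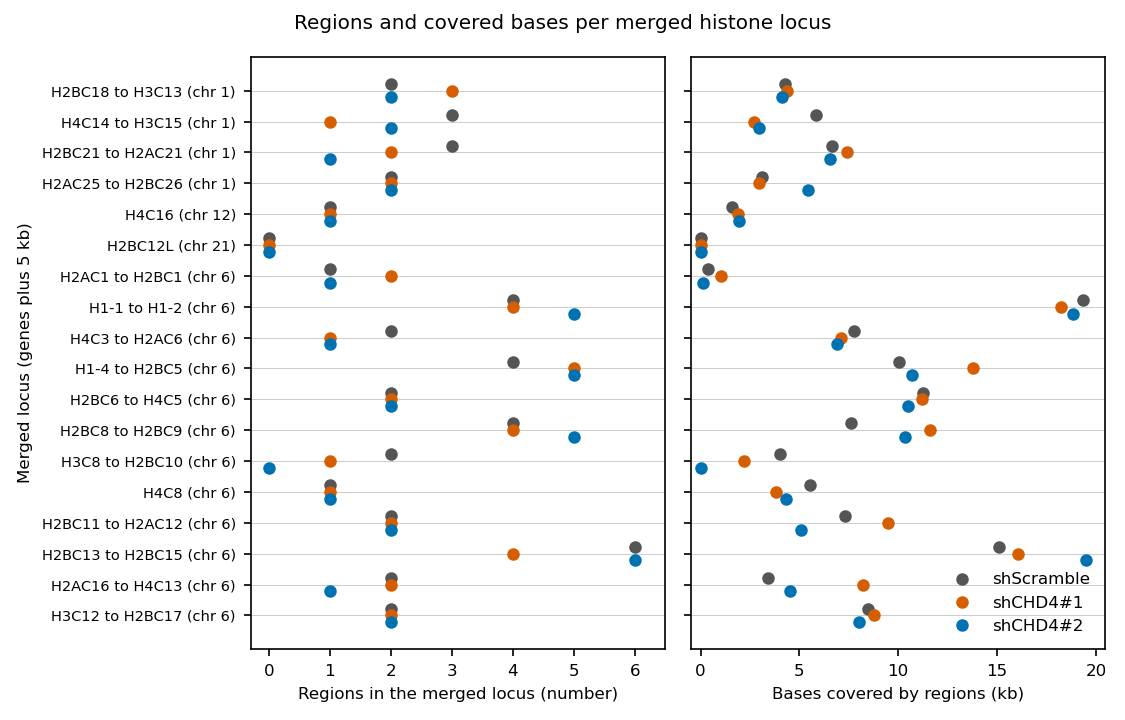
Number of deposited regions (left) and bases they cover in kb (right) in each of the 18 merged histone loci, 1 point per list. The lists differ by a few regions at most in any locus, and the locus of H3C8 and H2BC10 has 2, 1 and 0.

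Single members rarely gained regions in their 5 kb locus. With hairpin 1, 6 of 70 had more regions than in the control (8.57%, against 51.2% of all genes), 49 the same and 15 fewer (21.4%, against 17.3%). With hairpin 2, 10 had more (14.3%, against 30.7% of all genes), 42 the same and 18 fewer (25.7%, against 32.9%). Histone loci are short, and a closer comparison is with the 462 other genes of at most 1 kb, of which 18.2% had more and 6.93% fewer with hairpin 1, while 54 of the 462 had more and 51 fewer with hairpin 2. Both comparisons use the same control list, so their counts are not independent. Fewer regions with both hairpins were counted for 12 members (17.1%, against 13.0% of all genes), which lie in 5 loci. More regions with both were counted for 1 member, H2BC5 (4, 5 and 5 regions, 1.43% against 25.2%). Of the 462 other short genes, 5.63% had fewer and 8.23% more with both. The next largest rises were by 1 region in 1 hairpin list, for example at H2AC1 and H2AC11 (1, 2 and 1 each), H2BC1 (0, 1 and 0) and H2AC15 (0, 0 and 1).

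The 12 members are neighbours that share regions, and 7 of them lie on chromosome 1. There H3C14 had 2, 0 and 1 regions, H4C15 had 3, 1 and 2, and H2AC18 and H2AC19 each had 2, 1 and 1. H2BC21, H2AC20 and H2AC21 each had 3, 2 and 1. On chromosome 6, the H4 gene H4C12 had 3, 1 and 1 regions and H4C11 2, 1 and 1. H3C8 and H2BC10 had 2, 1 and 0, and H2AC6 had 2, 1 and 1. Of the 12 members, H3C14, H4C15, H2AC18, H2AC19, H4C11 and H4C12 have a promoter identical or nearly identical to that of another member. How reads with several equal matches were handled is not given, so the region numbers near those genes are uncertain. A lower number need not mean less covered sequence: the locus from H2BC21 to H2AC21 had 3, 2 and 1 regions, which covered 6660, 7410 and 6570 bp of it. Without tied regions, 6 members had fewer regions with both hairpins, and with the authors' regions of p at most 0.05 there were 0.

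**Figure D2:**
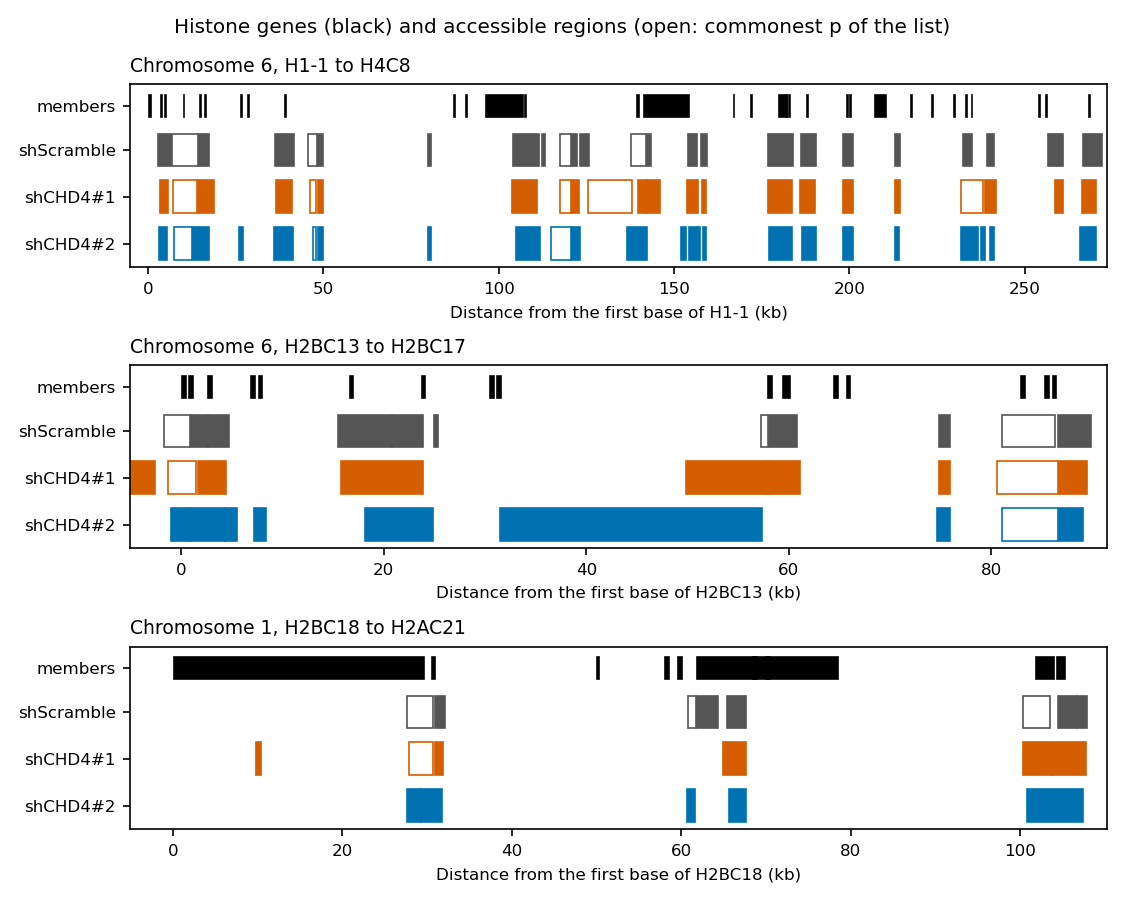
Members (black bars) and deposited regions of the 3 lists along 3 stretches of the clusters, by distance in kb from the first base of the first gene drawn, with tied regions open. Most regions recur in every list, and the widest region of the middle panel, of 25870 bp in the hairpin 2 list, overlaps shorter regions of the other lists.

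Counting every deposited region, the number of genes with a region was close in the 3 lists, but it was higher with hairpin 2 at p at most 0.05 and with the best 20000 regions. A region overlapped the gene for 40 of 70 members with shScramble (57.1%, Wilson 95% interval 45.5 to 68.1), 40 with hairpin 1 and 41 with hairpin 2 (58.6%, 46.9 to 69.4). These intervals cover counting error only. With the authors' regions of p at most 0.05, 20, 20 and 28 members had one, and with the best 20000 regions of each list 26, 20 and 30. The share of all genes was not counted at these 2 settings, so whether the higher number with hairpin 2 is particular to histone genes was not tested. Counting every deposited region, the share over all genes was 76.0%, 82.2% and 78.3%. Most members are short, however: 34, 34 and 35 of the 62 members of at most 1 kb were covered, while 17.5%, 22.3% and 18.4% of the 462 other genes of that length were. Of the 70 members, 37 were covered in all 3 lists (71.4% of all genes were) and 26 in none (14.9%). No member was gained with both hairpins (4.82% of all genes were), and 0 were lost with both (0.856%). With the best 20000 regions, 2 members (H2AC16 and H1-5) were lost with both and 2 (H2BC21 and H1-4) gained. Without tied regions 3 members were gained with both (H2BC18, H2BC21 and H1-4), and with the authors' p of at most 0.05 there were 2 (H2BC21 and H1-4). In the control list these 3 genes had tied regions only, at 91.4%, 91.4% and 97.6% of the order. Each of these settings leaves those regions out, so the gains are not read as opening. The 2 losses likewise follow from the cut, since the hairpin 1 region of H2AC16 and H1-5 was number 24426.

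**Figure D3:**
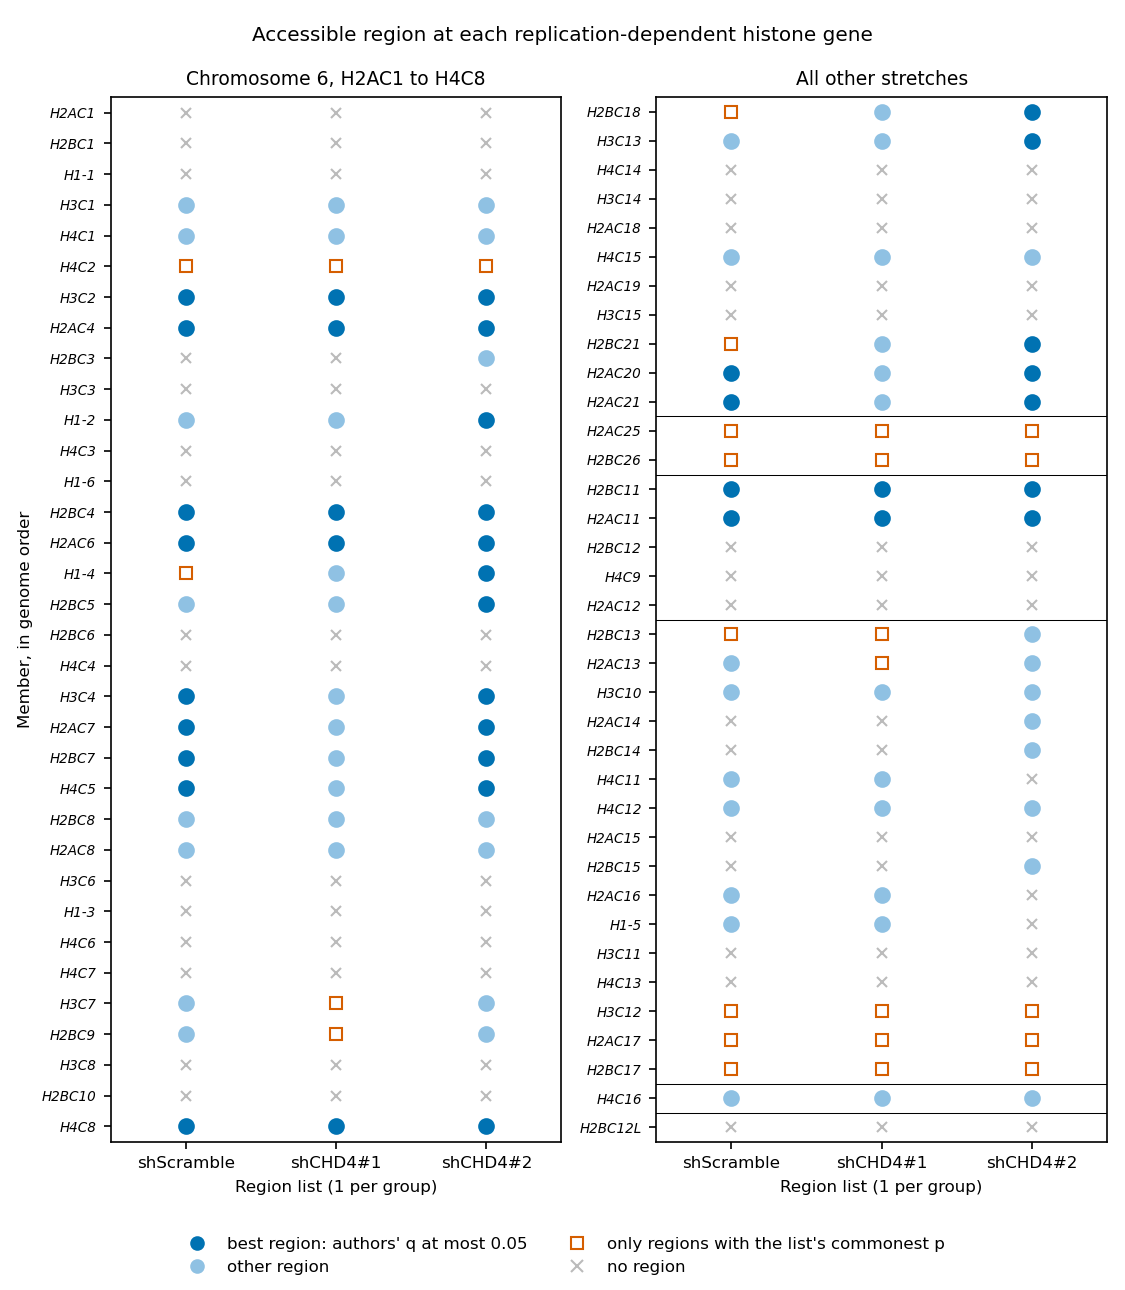
Region at each of the 70 members in the 3 lists: dark points have an authors' q of at most 0.05, light points another region, open squares tied regions only, and crosses none. The lists cover 40, 40 and 41 of the 70 members, and 7 members differ between lists.

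Among the core histone genes, H2A had 11 of 17 members covered in each list and H3 had 7 of 13 in each list. H2B, the partner of H2A in the nucleosome, had 11, 11 and 14 of 19. H4, the partner of H3, had 8, 8 and 7 of 15. The H1 genes had 3, 3 and 2 of 6. These classes differ by at most 3 members between lists, and 1 region can hold several members: in each list 15 regions held at least 2, and the largest number in 1 region was 3.

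The linker histone genes divided into those with and without an open gene. H1-2, a linker histone made in most tissues, lay in a region that spanned 5290 bp in the control list, against 4380 bp for hairpin 1 and 5460 bp for hairpin 2. H1-4, also widely made, lay in a tied region of 4460 bp in the control (chr6:26154721-26159180), and in regions outside the tied block of 2380 bp with hairpin 1 and 5610 bp with hairpin 2. The hairpin 1 region began downstream of the H1-4 promoter window, so that the window held no region in that list only. H1-5 was covered with shScramble (2730 bp) and hairpin 1 (3080 bp) and not with hairpin 2, where the nearest region ended 1972 bp away. H1-1 had no region at the gene in any list, with the nearest at 2214, 2794 and 2304 bp. H1-3 had none either, with the nearest at 2752, 2802 and 2912 bp. The testis linker histone gene H1-6 lay farthest from any, at 9642, 12846 and 9662 bp. The H1-2 promoter shows the H1 box, an element specific to linker histone genes, and is printed 5′ to 3′ for the 250 bases before the start on the minus strand (chr6:26056471-26056720, RefSeq, GRCh38.p14). Capitals mark matches to AAACACA (H1 box) and CCAAT on either strand.
H1-2: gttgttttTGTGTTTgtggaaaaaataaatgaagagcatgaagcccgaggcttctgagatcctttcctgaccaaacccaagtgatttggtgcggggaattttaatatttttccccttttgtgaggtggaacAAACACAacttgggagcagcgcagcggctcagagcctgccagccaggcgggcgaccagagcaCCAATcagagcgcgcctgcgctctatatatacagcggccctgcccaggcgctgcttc

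The 7 members whose coverage differed between lists lie on chromosome 6. H2BC3 lay in a region with hairpin 2 only (chr6:26043021-26044170), at 22.1% of that list's order, while the nearest region was 8697 bp away with shScramble and 7457 bp with hairpin 1. H2AC14 and H2BC14, a pair of divergent genes, shared a region with hairpin 2 only (chr6:27814641-27815860). H2BC15 was covered with hairpin 2 only by a region of 25870 bp (chr6:27838951-27864820), and without regions over 20 kb that call is lost. Thus 4 members were covered with hairpin 2 only (0.871% of all genes were), and 3 with hairpin 2 left out. The latter 3 were H4C11, H2AC16 and H1-5 (2.52% of all genes), with the nearest hairpin 2 region at 1191, 497 and 1972 bp. These calls rest on which regions are counted. At p of at most 0.05, none of the 4 was covered with hairpin 2 only, 6 other members were (H2BC18, H3C7, H2BC9, H2AC13, H3C10 and H4C12), and 0 were absent with hairpin 2 only. With the best 20000 regions, H2BC3 remained of the 4, beside H2BC18, H2AC13 and H4C16, and again 0 were absent with hairpin 2 only. The H2BC3 promoter is shown because its coverage was in 1 list only (minus strand, chr6:26043714-26043963). On either strand, capitals mark CCAAT, the TATA box (TATAAA) and the octamer (ATTTGCAT).
H2BC3: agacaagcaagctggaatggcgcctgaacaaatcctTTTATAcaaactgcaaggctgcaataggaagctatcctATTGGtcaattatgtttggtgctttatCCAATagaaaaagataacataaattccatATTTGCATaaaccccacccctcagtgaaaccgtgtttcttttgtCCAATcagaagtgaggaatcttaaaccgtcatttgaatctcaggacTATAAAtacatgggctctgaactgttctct

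The best-ranked histone region was the divergent promoter of H2BC11 and H2AC11. It was number 29 in the control list (chr6:27129981-27136590, authors' q 5.6e-05), number 173 with hairpin 1 (chr6:27129201-27136790, q 0.00098) and number 15 with hairpin 2 (chr6:27130481-27135030, q 3.2e-05). Ranks describe an order within a list only, since the lists differ in length. In the control list it was followed by the regions of H4C8 (number 407) and of H3C2 and H2AC4 (416). The latest in the control order were H1-4, H2BC13, H2AC17, H2BC17 and H3C12, all in tied regions at 97.6%. A region with an authors' q of at most 0.05 lay at 13 members with shScramble, 7 with hairpin 1 and 19 with hairpin 2. Over all genes this share was 6.42%, 7.80% and 6.94%. Of 84 ribosomal protein genes 13, 4 and 16 had such a region, and of the 462 other genes of at most 1 kb 2, 4 and 4. The lower number with hairpin 1 and the higher with hairpin 2 are thus not particular to the members. The members with such a region shared 7, 4 and 10 distinct regions, so the numbers of genes are not independent counts. The H2AC11 promoter holds the most motif matches of those printed (plus strand, chr6:27132793-27133042), with the same marks as for H2BC3.
H2AC11: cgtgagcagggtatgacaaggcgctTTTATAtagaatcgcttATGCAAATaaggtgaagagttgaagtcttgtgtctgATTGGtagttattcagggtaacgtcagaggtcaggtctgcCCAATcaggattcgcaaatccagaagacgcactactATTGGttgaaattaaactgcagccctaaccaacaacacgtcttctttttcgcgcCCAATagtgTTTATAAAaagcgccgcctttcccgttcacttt

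Members arranged head to head mostly had both starts in 1 region. Of 13 pairs with starts within 1000 bp, 11 join an H2A and an H2B gene with starts 194 to 248 bp apart (median 236), and 2 join an H2B and an H3 gene. H3C4 and H2AC7 have the same start, so their pairs with H2BC7 are 1 site counted as 2 pairs. Both starts lay in 1 region for 9 pairs with shScramble, 10 with hairpin 1 and 11 with hairpin 2, and 9 pairs had this in every list. Regions at members had median widths of 2970, 3545 and 4430 bp in the 3 lists, so a region at 1 start will mostly hold the other. The share over other divergent gene pairs was not counted, so this sharing is not read as a trait of histone genes. H2AC14 and H2BC14 had it with hairpin 2 only, and H2BC21 and H2AC20 with both hairpins but not in the control. In the control, a region that ended at chr1:149886280 and one that began at 149887161 lay on either side of the pair's starts. H2AC1 and H2BC1, which are testis histone genes, and H2AC15 and H2BC15 had no such region in any list.

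The promoter window, from 250 bases before to 50 after the start, was known for 64 of the 70 members. A region lay in it for 34 members with shScramble (53.1%), 34 with hairpin 1 (53.1%) and 37 with hairpin 2 (57.8%), against 50.3%, 56.9% and 57.3% of 15812 promoters. It was present in every list for 29 members (40.2% of all promoters) and in none for 24 (32.6%). With hairpin 2 only, 4 had it (H2BC3, H2AC14, H2BC14 and H4C12, against 3.82%), and 3 lacked it with hairpin 2 only (H4C11, H2AC16 and H1-5, against 3.36%). H3C1 and H1-4 lacked it with hairpin 1 only, as did 711 of the 15812 promoters. A region in the window with an authors' q of at most 0.05 was found for 12, 7 and 19 members, against 5.07%, 5.28% and 5.65% of all promoters. Of 67 ribosomal protein genes 8, 4 and 11 had one, and of 345 other genes of at most 1 kb 2, 3 and 3. H2BC21 and H2AC20 were the 2 members gained with both hairpins (8.80% of all promoters were), and 0 were lost with both (2.25%). The 2 gains are 1 divergent promoter with overlapping windows. In the control list that promoter lay between 2 regions with the same second value (4110), 1 of them tied, so the gain is not read as opening. With regions of p at most 0.05, the window held a region for 17, 17 and 26 members, and the share of all promoters was not counted at that setting. Away from the start, members were covered more often than all genes: 2 kb downstream, 45.3%, 42.2% and 40.6% of members had a region, against 22.4%, 27.8% and 18.8% of all genes. Members lie close together, and in each list 15 regions held at least 2 of them. Such a position can lie in the region of a neighbouring member, so the 64 positions are not independent. Ribosomal protein genes had 44.8%, 44.8% and 50.7% at 2 kb downstream, so this coverage is not particular to the members. At 2 kb upstream the member shares were 34.4%, 35.9% and 40.6%, against 21.5%, 26.2% and 16.4%.

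**Figure D4:**
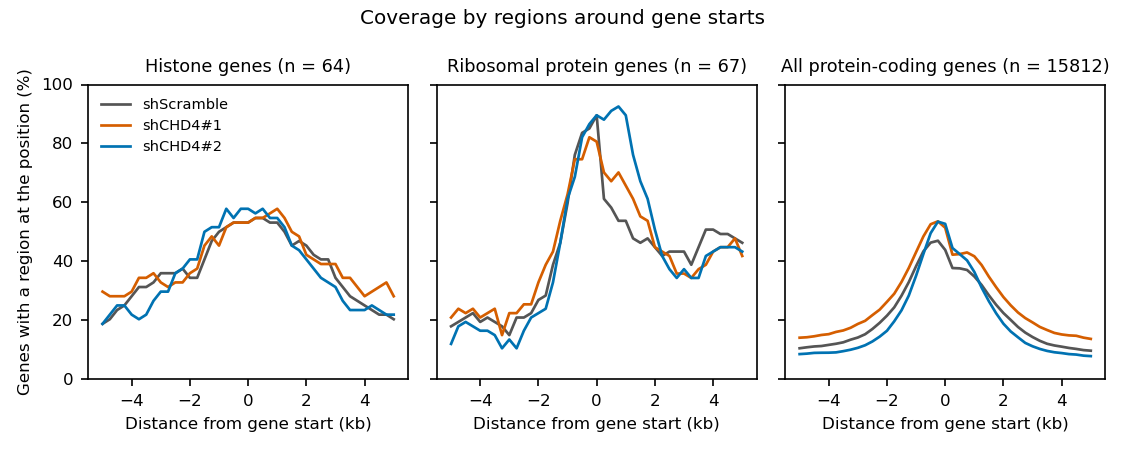
Share of genes with a region at each position from 5 kb before to 5 kb after the start, in steps of 250 bp, for members, ribosomal protein genes and all genes with a promoter sequence. Members reach 53.1%, 53.1% and 57.8% at the start and lie above all genes at 2 kb to either side, where a position can lie in a neighbouring member's region.

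Core promoter motifs were searched in the 250 bases before the start of the 64 members, on both strands. CCAAT, the NF-Y site, was in 54 (84.4%, against 34.4% of 15810 promoters). TATAAA was in 42 (65.6%, against 9.25%). The octamer ATTTGCAT, bound by POU2F1, was in 26 (40.6%, against 1.66%), of which 14 of 18 H2B promoters, 11 of 16 H2A and 1 of 11 H3. The H3 promoter is that of H3C4, which is the same window as that of the H2A gene H2AC7. That sequence is thus counted in both classes, and no separate H3 promoter had the octamer. Divergent H2A and H2B genes, with starts 194 to 248 bp apart, also have overlapping windows. Since both strands were searched, 1 match can be counted for both genes of a pair. The motif counts are therefore counts of members, not of separate sites. The H1 box AAACACA was in 6 (9.38%, against 3.70%), which are the 6 H1 genes. H4 promoters had CCAAT in 3 of 13 and TATAAA in 7 of 13. Of 239 matches, 0 overlapped a match to another motif. Among the 29 members with a region in the window in every list, 15 had the octamer, 25 CCAAT, 19 TATAAA and 1 the H1 box. Among the 24 with none, 5 had the octamer, 20 CCAAT, 14 TATAAA and 3 the H1 box. The octamer was in 0 of 6 H1 and 0 of 13 H4 promoters. H1 and H4 members made up 1 and 4 of the 29, and 3 and 7 of the 24. Classes were not separated in these counts, and the genes of a divergent pair can share both a match and a region. Whether a motif goes with a region was not tested. A match describes letters only, not bound factor.

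Near-identical promoter copies limit what can be read for some members. H4C14 and H4C15, H3C14 and H3C15, and H2AC18 and H2AC19, all on chromosome 1, were identical over the compared part of the 300-base window when shifts of up to 20 bases were allowed. None of these 6 had a region in the window in any list. How reads with several equal matches were handled is not given in the sources used here, so the lack of a region at these 6 is uncertain. H3C4 and H2AC7 also matched in full, but as a single genomic window and not a copy, and this limit does not apply to them. That window does count as 2 of the 64 members in the window and motif counts. H4C11 and H4C12 were 98.3% identical, with 5 differences, and the window of H4C11 held a region with shScramble and hairpin 1 while that of H4C12 held one with hairpin 2. That exchange is uncertain for the same reason. For the other members the closest match had a median identity of 37.7%, and at most 84.0%. The 2 H4 promoters (H4C11 plus strand, chr6:27823842-27824091, and H4C12 minus strand, chr6:27831561-27831810) and the 2 H2A promoters (H2AC18 minus strand, chr1:149842751-149843000, and H2AC19 plus strand, chr1:149850811-149851060) are printed to show how alike they are, with CCAAT and TATAAA in capitals.
H4C11: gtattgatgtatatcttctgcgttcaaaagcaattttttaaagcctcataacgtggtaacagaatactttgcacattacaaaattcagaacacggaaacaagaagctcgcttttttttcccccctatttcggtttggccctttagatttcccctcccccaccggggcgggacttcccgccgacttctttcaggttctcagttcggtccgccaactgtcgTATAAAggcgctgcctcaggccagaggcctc
H4C12: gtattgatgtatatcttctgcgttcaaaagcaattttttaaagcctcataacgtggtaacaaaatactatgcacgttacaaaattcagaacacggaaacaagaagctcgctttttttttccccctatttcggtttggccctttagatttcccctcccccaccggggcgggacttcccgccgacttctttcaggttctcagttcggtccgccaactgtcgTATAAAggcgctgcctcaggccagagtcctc
H2AC18: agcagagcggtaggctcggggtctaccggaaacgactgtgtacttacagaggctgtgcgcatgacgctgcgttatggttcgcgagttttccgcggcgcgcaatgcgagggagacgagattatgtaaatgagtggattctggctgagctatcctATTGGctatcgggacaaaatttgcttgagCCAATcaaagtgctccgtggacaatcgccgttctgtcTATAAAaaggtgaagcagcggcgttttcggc
H2AC19: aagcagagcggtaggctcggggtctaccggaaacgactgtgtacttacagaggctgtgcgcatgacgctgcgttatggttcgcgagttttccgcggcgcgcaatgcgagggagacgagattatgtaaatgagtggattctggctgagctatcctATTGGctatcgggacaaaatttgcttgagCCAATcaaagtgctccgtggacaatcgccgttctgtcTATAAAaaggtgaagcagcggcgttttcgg

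The 26 members without a region at the gene in any list were spread over all classes. They were H1-1, H1-3 and H1-6. Of H2A they were H2AC1, H2AC12, H2AC15, H2AC18 and H2AC19. Of H2B they were H2BC1, H2BC6, H2BC10, H2BC12 and H2BC12L. Of H3 they were H3C3, H3C6, H3C8, H3C11, H3C14 and H3C15, and of H4 they were H4C3, H4C4, H4C6, H4C7, H4C9, H4C13 and H4C14. The nearest region lay at a median of 4114, 4664 and 5016 bp in the 3 lists. It was over 5 kb away for 10, 10 and 13 of them.

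Over the 37 members covered in every list, the best-ranked region at the gene had a median width of 3370 bp in the control list, 4120 bp for hairpin 1 and 4840 bp for hairpin 2. Over all 14263 genes covered in every list the medians were 1550, 1610 and 1350 bp. At the other genes of at most 1 kb that had a region, the medians were 2530, 2650 and 2570 bp, nearer to those of the members. At the 79 ribosomal protein genes covered in every list they were 1740, 2390 and 2580 bp. A larger median in both hairpin lists is thus not particular to the members. Counting each control region once leaves 25, of which the hairpin 1 region was wider for 13 and narrower for 11, and the hairpin 2 region wider for 14 and narrower for 11. Widths depend on how regions were split: with regions up to 100 bp apart joined, the median over all covered members was 5220, 6200 and 5610 bp, against 3310, 4120 and 4840 bp as deposited.

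**Figure D5:**
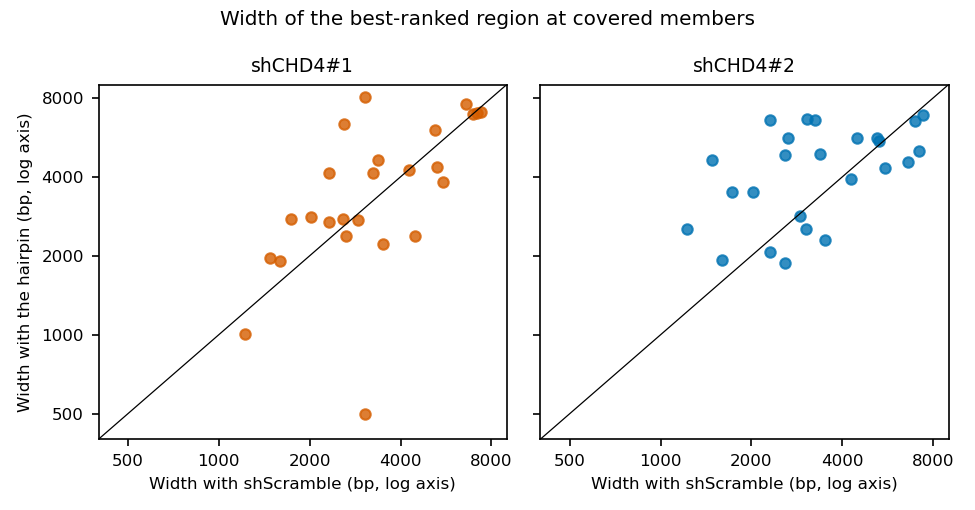
Width of the best-ranked region at covered members with each hairpin against shScramble, on log axes, with 1 point per control region and the line of equal width. Points lie on both sides of the line, with 13 of 25 wider for hairpin 1 and 14 of 25 for hairpin 2.

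Merging the lists gave 41 regions in the histone loci and 130785 in all. In the histone loci 25 were in every list (61.0%, 45.7 to 74.3), against 33.2% of all. All merged regions include those far from genes, and no such share was counted for other gene loci or by width. Whether the higher share is particular to histone loci was thus not tested. Hairpin 1 alone had 3 (7.32%, against 29.0%) and hairpin 2 alone had 4 (9.76%, against 5.44%). Gained with both hairpins was 1 (2.44%, against 10.0%), and lost with both were 4 (9.76%, against 10.5%). With regions of p at most 0.05, 11 were in every list and 0 were lost with both.

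Of 23 genes for transcription and processing of histone RNA, 22, 23 and 23 had a region at the gene (95.7%, 100% and 100%, against 76.0%, 82.2% and 78.3% of all genes). CPSF2, a subunit of the 3′ end cleavage complex, was the 1 gene that differed, with 0, 2 and 1 regions in its locus. NPAT, the coactivator of histone transcription, had 1, 2 and 1 regions, CASP8AP2 had 4, 2 and 3, and SLBP had 7, 5 and 3. Of 23 replication-independent histone variants, which are made outside S phase as well, 14, 15 and 13 were covered (60.9%, 65.2% and 56.5%). Those that differed were H1-7, covered with hairpin 1 only, and H1-8, not covered with hairpin 2, both germ cell linker histones. Ribosomal protein genes, which are highly expressed in growing cells, had 246, 255 and 232 regions in their loci, or 1.04 and 0.943 times the control. The 7 other genes within the histone clusters had 5, 5 and 6.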

How the data were processed

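The 9 ATAC-seq libraries were trimmed with Trimmomatic 0.36, checked with FastQC 0.11.7, and handled with BWA, SAMtools 1.9 and deepTools 3.2.1 on GRCh38 and dm6, per the submitters' processing notes. Not given in the sources used here: the peak caller, the Tn5 shift, the treatment of reads with several matches and the use of the Drosophila cells. The authors deposited 1 region list per group, each with a score, a second score per region, and a p-value and q-value. These values are the authors' and were used only within a list. Depth is not known from the lists.

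Region starts were counted from 1. A region counted at a gene, locus or promoter window when it shared a base with it. Gene positions and promoter sequences came from RefSeq tables (GRCh38.p14), which matched 64 of 70 members to a promoter. No test between groups was made, since each group has 1 list. Counting used Python 3.11.15, pandas 2.3.3, numpy 2.4.6 and SciPy 1.17.1 and was tested on simulated data.

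Members and gene lists were chosen with earlier results of these data known. Genes named singly were H1-1 to H1-6, members in some lists only or in none, the 5 best and 5 latest in the control order, the 5 largest rises and falls in region number, and, from other lists, those whose coverage differed and NPAT, CASP8AP2 and SLBP. Alternatives left out regions by p, rank, width or ties, joined neighbouring regions and changed the flank.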

Additional observations from a re-analysis of the deposited data

How the results depend on the processing

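Of 105 alternative values for 21 results, 74 stayed close to the value given and 31 moved. Close meant within 1.5-fold for a count, and inside the interval of the value given for a ratio or a median width. This rule is wide for the ratios and ignores direction. The hairpin 2 ratio of 1.29 at p at most 0.05 counted as close to 0.884. So did the hairpin 1 ratio of 0.652 with the best 20000 regions to 0.907. With the authors' p at most 0.05, the histone loci held 14, 14 and 18 regions. A region then lay at 20, 20 and 28 members, at 18 in every list and at none for 42. The promoter window held one for 17, 17 and 26. Shares over all genes or promoters were not counted at the alternative settings. More regions with both hairpins were then counted for 2 members and fewer for 0, and of the merged regions 11 were in every list and 0 lost with both. With the best 20000 regions of each list, the loci held 23, 15 and 23 regions, and 26, 20 and 30 members were covered, with 18 in every list. A flank of 50 kb gave 88, 97 and 84 regions, with 12 members having more and 30 fewer with both, and a flank of 1 kb gave 2 and 4. Without tied regions, an alternative chosen after seeing the data, 24 members were covered in every list, 2 had more and 6 fewer with both. With regions up to 100 bp apart joined, also chosen after seeing the data, 2 had more with both and the hairpin 1 median width was 6200 bp. No paired analysis was possible because each group has 1 list and the lists carry no replicate columns, and for the same reason no replicate could be left out. Depth is unknown, so absence of a region is not absence of open chromatin.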

Other observations

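All 18 histone chaperone genes, whose proteins carry histones to DNA, had a region at the gene in each of the 3 lists, against 71.4% of all genes. Of 84 ribosomal protein genes, 79, 83 and 83 had one (94.0%, 98.8% and 98.8%, against 76.0%, 82.2% and 78.3% of all genes). At the start of the 67 ribosomal protein genes with a promoter sequence, 89.6% were covered with shScramble, 80.6% with hairpin 1 and 89.6% with hairpin 2, against 43.8%, 51.4% and 52.7% of all genes. At 1 kb downstream the shares were 53.7%, 65.7% and 89.6%, against 34.8%, 41.7% and 36.4%. These values come from 1 list per group and have no test.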
